A study of Homo sapiens with 6 samples.

Results

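Lysosomal hydrolases and membrane proteins were followed as a set of 39 genes, picked by gene symbol from the 17318 genes listed for each library. All 39 symbols were present. By role, 9 encode proteins of the lysosomal membrane, 11 glycosidases, 5 sulfatases, 6 hydrolases of lipids or proteins, 4 lumenal activators and carriers, 2 proteins that route enzymes to lysosomes and 2 transcription factors of lysosomal genes. A mean of at least 1 FPKM (fragment counts scaled to transcript length and library size) over the 6 libraries was reached by 37 of the 39, which were tested. HEXA and TFEB did not reach it. No tested member had a group mean under 1 FPKM.

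The RNA came from SNU216, an established human gastric cancer cell line grown in RPMI1640 with fetal bovine serum and antibiotics. Transfection lasted 48 h in both groups, with a control siRNA for the 3 siControl libraries and with siRNA against OXTR, the gene of the oxytocin receptor, for the 3 siOXTR libraries. The sources used here give neither the siRNA sequences nor whether separate cultures stand behind the 3 libraries of a group. The p-values therefore reflect the scatter of these libraries alone, and that scatter may be technical. The comparison asks how the transcriptome differs when OXTR is depleted, in a study of this receptor and the coactivator YAP in gastric cancer.

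Lysosomes are acidic organelles that break down proteins, lipids, glycans and glycosaminoglycans. Their soluble hydrolases are made at the endoplasmic reticulum, receive a mannose phosphate tag in the Golgi and are carried onward by mannose phosphate receptors, whereas the membrane proteins follow sorting signals in their cytosolic tails. Many lysosomal genes share a promoter sequence, the CLEAR element, that is bound by TFEB, TFE3 and MITF, and loss of single members causes lysosomal storage diseases.

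The knockdown was visible in every library, with OXTR at 39.37, 38.87 and 39.02 FPKM in siControl and at 4.76, 4.65 and 5.34 FPKM in siOXTR. The FPKM sum of a library was 417829 to 434167 in siControl and 446246 to 459595 in siOXTR, and sequencing depth was not known. Over tested genes Pearson's r was 0.995 to 0.998 within a group and 0.974 to 0.976 between the groups. Of 11550 tested genes 59.8% were called at an adjusted p under 0.05 (limma), 4869 as higher (42.2%) and 2036 as lower (17.6%) in siOXTR. Scaling the FPKM values by TMM, the trimmed mean of log ratios, moved the median change over all tested genes, on the log2 scale, from 0.13 to 0.016 and gave 2280 higher and 2796 lower, so small rises depended on scaling. The epithelial keratin genes KRT8, KRT18 and KRT19 lay between 1495 and 3224 FPKM in every library. Of these KRT19 was called higher in siOXTR (1701 ± 200 and 2041 ± 46 FPKM, adjusted p = 0.011, limma), though not after TMM scaling. KRT8 and KRT18 were not called as deposited. EPCAM (291 ± 17.2 and 145 ± 7.78 FPKM) and CDH1 (76.1 ± 3.28 and 20 ± 0.243 FPKM) fell. Of 6 macrophage markers AIF1 was at 53.3 to 66.88 FPKM in siControl and 61.76 to 74.41 FPKM in siOXTR (higher, adjusted p = 0.0448, limma, not called after TMM scaling) and the other 5 at no more than 1.67 FPKM, with CD163 at 0 in all siControl libraries. Summed fibroblast markers were at 1.61 to 1.99 FPKM in siControl and 0.6 to 0.78 FPKM in siOXTR, and summed endothelial markers at 0.59 to 0.96 and 0.39 to 0.62 FPKM. The part of these markers in the results below was not tested.

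The lysosomal genes were lower in siOXTR almost throughout. Of the 37 tested members, 34 fell and none rose (limma, adjusted p under 0.05), against 17.6% of all tested genes that fell. At an unadjusted p under 0.05, 34 were lower and 1 was higher. The same 34 to 0 split was found after TMM scaling and after scaling the libraries to equal sums, where 24.2% and 21.1% of all tested genes were lower and 19.7% and 25.6% higher. The median log2 fold change of the tested members was -0.74, with quartiles at -1.05 and -0.37, and that of all tested genes was 0.13. Log2 fold changes here are on the log2(FPKM + 1) scale, siOXTR minus siControl, which understates changes of genes with low values. The 3 siControl and 3 siOXTR values did not overlap in 33 of the 37, against 64.4% of all tested genes. A log2 fall of 1 or more was reached by 10 members, and by 2.34% of all tested genes.

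**Figure D1:**
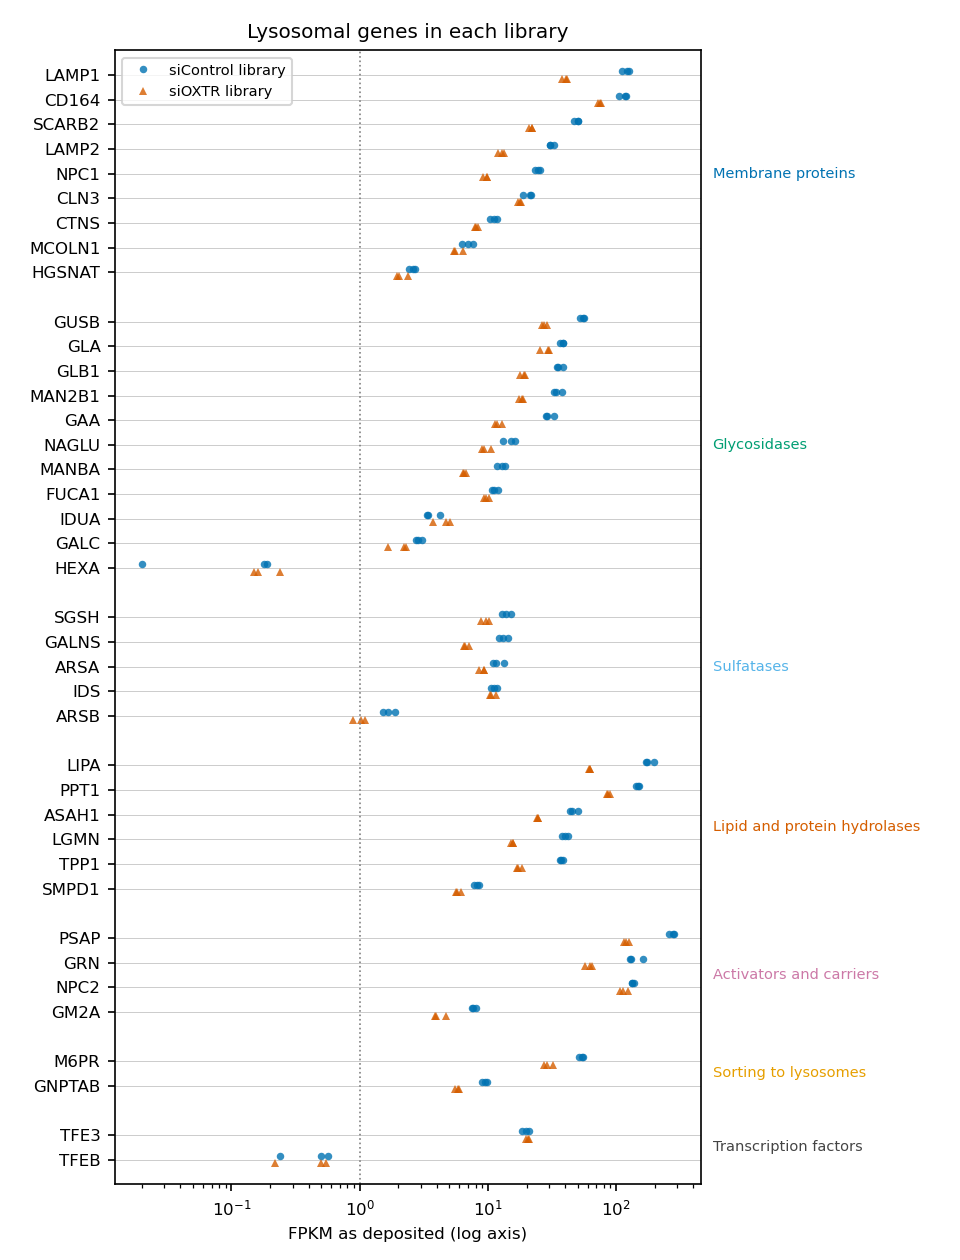
FPKM as deposited (log axis) of all 39 genes in each of the 3 siControl libraries (circles) and 3 siOXTR libraries (triangles), by role, with a dotted line at 1 FPKM. The siOXTR values of most genes lie to the left of the siControl values, those of IDUA, IDS, MCOLN1 and TFE3 overlap with them, and HEXA and TFEB lie under the line.

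Summed over the 39 genes, siControl came to 1740, 1794 and 1766 FPKM and siOXTR to 919, 939 and 951 FPKM, a difference of 1.89-fold in the means. The groups were far apart on this sum. Its share of all FPKM went from between 0.407% and 0.417% in siControl to between 0.204% and 0.208% in siOXTR. In RNA from bulk cultures, fewer cells expressing a gene and less RNA of it per cell cannot be told apart. By role, the summed FPKM was 2.16-fold lower for hydrolases of lipids and proteins, 1.98-fold for membrane proteins, 1.84-fold for activators and carriers, 1.78-fold for the sorting genes, 1.74-fold for glycosidases and 1.40-fold for sulfatases. The transcription factors summed to 20.1 ± 1.17 and 20.9 ± 0.554 FPKM in siControl and siOXTR (SD, n = 3 each, as for every value given with ±).

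All 9 genes of membrane proteins fell, LAMP1 and NPC1 the most. LAMP1, which with LAMP2 makes up most of the glycoprotein lining of the lysosomal membrane, was at 110.79, 121.08 and 126.56 FPKM in siControl and at 37.73, 41.43 and 40.25 FPKM in siOXTR. Every siOXTR library was below every siControl library by a wide margin. The means of 119 ± 8.01 and 39.8 ± 1.89 FPKM differed 3.0-fold (log2 fold change -1.56, SE 0.061, adjusted p = 1.26e-09, limma), the largest fall among the members and rank 41 from the bottom among all tested genes. LAMP1 lies on chromosome 13 from 113297241 to 113323672 (GRCh38, GENCODE release 29). LAMP2, whose splice forms serve membrane protection and chaperone-mediated autophagy, held 30.46, 30.47 and 32.64 FPKM in siControl and 11.91, 12.94 and 13.35 FPKM in siOXTR, 2.45-fold lower in the means. The ratio of LAMP1 to LAMP2 within a library went from 3.83 ± 0.173 to 3.13 ± 0.0995, without overlap between the groups.

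The sequence before LAMP1 is shown because this gene fell most and because the sequence holds more E-box cores than that of any other tested gene searched. The 250 bases before its RefSeq start (chr13:113296989-113297238, plus strand, GRCh38.p14) read as follows, with each CACGTG core in capitals.
LAMP1: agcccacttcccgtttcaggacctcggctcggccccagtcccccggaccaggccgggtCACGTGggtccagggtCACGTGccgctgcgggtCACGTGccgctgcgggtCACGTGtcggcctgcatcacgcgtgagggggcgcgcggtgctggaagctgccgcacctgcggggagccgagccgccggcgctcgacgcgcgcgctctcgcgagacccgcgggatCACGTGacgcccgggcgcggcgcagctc
The stretch shown holds 5 cores, and the full window of 300 bases, which runs 50 bases past the start, holds 6. Of 9511 tested genes with a sequence, 1 had 5 or more cores in that window, LAMP1 itself, and 10.3% had at least 1.

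SCARB2, an abundant protein of the lysosomal membrane also called LIMP2, was at 50.63, 46.9 and 49.97 FPKM in siControl and at 20.87, 22.05 and 21.97 FPKM in siOXTR, 2.27-fold lower. NPC1, the cholesterol exporter of the membrane, held 25.42, 24.77 and 23.48 FPKM in siControl and 9.84, 9.19 and 9.77 FPKM in siOXTR, 2.56-fold lower (log2 fold change -1.27, SE 0.058, adjusted p = 4.19e-09, limma). For both genes the groups were well separated. CD164, a sialomucin of endosomes and lysosomes, was nearly as abundant as LAMP1 in siControl, at 116.49, 104.47 and 119.63 FPKM, and fell less, to 72.53, 75.25 and 75.89 FPKM. CTNS, which encodes the cystine exporter cystinosin, fell 1.38-fold, from 11.2 ± 0.676 to 8.08 ± 0.191 FPKM.

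The other 3 membrane genes fell little. CLN3, a gene of Batten disease, went from 20.6 ± 1.62 to 17.6 ± 0.556 FPKM, MCOLN1, the calcium channel mucolipin 1, from 6.95 ± 0.70 to 5.82 ± 0.524 FPKM, and HGSNAT, the acetyltransferase of heparan sulfate breakdown, from 2.58 ± 0.148 to 2.12 ± 0.226 FPKM. Adjusted p-values were 0.0131, 0.0316 and 0.0443 (limma). CLN3 shares 1592 exon bases with another annotated gene on the same strand, so its value is uncertain. The values of MCOLN1 overlapped between groups, at 6.26 to 7.66 FPKM in siControl and 5.47 to 6.42 FPKM in siOXTR. The calls were not firm. CLN3 was lost without siOXTR replicate 3 (adjusted p = 0.0555), and MCOLN1 and HGSNAT without siControl replicate 2 (0.123 and 0.0927), without siControl replicate 3 (0.061 and 0.114), without siOXTR replicate 1 (0.105 and 0.141), without siOXTR replicate 2 (0.102 and 0.135) and with no filter on low values (0.0711 and 0.0609).

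Of 11 glycosidase genes 10 were tested and 9 fell. GAA, acid alpha-glucosidase, which degrades glycogen and is deficient in Pompe disease, was at 29.09, 32.91 and 28.6 FPKM in siControl and at 12.83, 11.8 and 11.36 FPKM in siOXTR. The groups did not overlap, and the means differed 2.52-fold (log2 fold change -1.26, SE 0.068, adjusted p = 1.74e-08, limma). Fold differences between 1.91 and 1.99 were found for GUSB, GLB1, MAN2B1 and MANBA, which encode beta-glucuronidase, beta-galactosidase, alpha-mannosidase and beta-mannosidase. MAN2B1 shares 702 exon bases with another annotated gene on the same strand. GUSB held 56.58, 55.01 and 52.6 FPKM in siControl and 26.32, 27.4 and 28.82 FPKM in siOXTR, though this gene has many near-identical pseudogenes and its value is uncertain. NAGLU, of heparan sulfate breakdown, fell 1.54-fold, GALC, galactosylceramidase, 1.4-fold, GLA, the alpha-galactosidase of Fabry disease, 1.33-fold and FUCA1, alpha-fucosidase, 1.17-fold. FUCA1 missed the threshold without siControl replicate 2 (adjusted p = 0.050022) and without siOXTR replicate 3 (adjusted p = 0.0693).

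IDUA, the iduronidase of dermatan and heparan sulfate breakdown, had the highest log2 fold change of the members. It held 3.38, 4.2 and 3.36 FPKM in siControl and 5.08, 4.68 and 3.74 FPKM in siOXTR, with overlap between the groups (log2 fold change 0.24, 95% confidence interval 0.023 to 0.46, adjusted p = 0.0544, limma). It passed the threshold without siControl replicate 2 (adjusted p = 0.0227) and without siOXTR replicate 3 (adjusted p = 0.0108), as it did with the replicate number as a block (adjusted p = 0.0171). After TMM scaling its log2 fold change was 0.14 (adjusted p = 0.269). Its exons share 141 bases with SLC26A1 on the opposite strand. HEXA, which encodes a subunit of a lysosomal glycosidase, was listed at 0.19, 0.18 and 0.02 FPKM in siControl and at 0.16, 0.24 and 0.15 FPKM in siOXTR, levels that allow no comparison. The exons of HEXA share 617 bases with another annotated gene on the same strand and 650 bases with an antisense gene (GENCODE release 29).

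Of the 5 sulfatases 4 fell, and the median log2 fold change of the 5 was -0.42. GALNS, which removes sulfate from keratan and chondroitin sulfate, was at 13.17, 14.44 and 12.17 FPKM in siControl and at 6.55, 6.67 and 7.14 FPKM in siOXTR, 1.95-fold lower. SGSH, the sulfamidase of heparan sulfate, fell 1.47-fold, ARSA, arylsulfatase A, 1.32-fold and ARSB, the sulfatase of dermatan sulfate, 1.68-fold from a level of 1.69 ± 0.183 FPKM. IDS, iduronate sulfatase, held 11.77, 10.62 and 11.08 FPKM in siControl and 11.5, 10.43 and 10.53 FPKM in siOXTR. Its groups overlapped, and the difference did not pass the threshold (log2 fold change -0.041, 95% confidence interval -0.18 to 0.098, adjusted p = 0.601, limma). IDS has a near-identical pseudogene copy and shares 1438 exon bases with another annotated gene, so its value is uncertain.

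The genes of lipid and protein hydrolases had the lowest median of the roles, -0.97, and all 6 fell. LIPA, the acid lipase that frees cholesterol and fatty acids from lipoproteins taken up by the cell, was the second most abundant member in siControl, at 173.06, 171.15 and 196.37 FPKM. In siOXTR it was at 62.07, 62.47 and 61.41 FPKM, values closely spaced and far below those of siControl. The means differed 2.91-fold (log2 fold change -1.52, SE 0.059, adjusted p = 1.26e-09, limma). LGMN, the asparaginyl protease legumain, held 37.87, 42.09 and 40.03 FPKM in siControl and 15.76, 15.56 and 15.11 FPKM in siOXTR, 2.58-fold lower. TPP1, a tripeptidyl peptidase, fell 2.13-fold, ASAH1, acid ceramidase, 1.89-fold, PPT1, which removes palmitate from proteins, 1.68-fold and SMPD1, acid sphingomyelinase, 1.4-fold. PPT1 shares 1189 exon bases with CAP1 on the opposite strand, and TPP1 665 with another annotated gene on the same strand.

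Lumenal activators and carriers also fell, but unequally. PSAP, the precursor of the saposins that present sphingolipids to their hydrolases, was the most abundant member in both groups, at 278.63, 283.23 and 258.75 FPKM in siControl and at 119.2, 115.62 and 126.57 FPKM in siOXTR, 2.27-fold lower (log2 fold change -1.18, SE 0.057, adjusted p = 7.47e-09, limma). GRN, progranulin, which is cut into granulins in the lysosome, held 129.39, 160.9 and 129.1 FPKM in siControl and 65.28, 62.92 and 57.56 FPKM in siOXTR. SiControl replicate 2 stood above the others for GRN, and the groups did not overlap. GM2A, the activator for ganglioside breakdown, fell 1.85-fold from 7.72 ± 0.308 FPKM. NPC2, the soluble carrier that hands cholesterol to NPC1, held 136.53, 133.35 and 131.88 FPKM in siControl and 106.86, 113.47 and 124.33 FPKM in siOXTR. That was a fall of 1.17-fold (log2 fold change -0.22, SE 0.060, adjusted p = 0.00723, limma), with all siOXTR values below the siControl values but spread over a wider range.

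NPC1 and NPC2 act in one pathway, and their levels moved apart. The ratio of NPC1 to NPC2 was 0.186, 0.186 and 0.178 in the siControl libraries and 0.0921, 0.0810 and 0.0786 in the siOXTR libraries, a log2 difference of -1.13. An exact two-sided permutation test gave p = 0.1, the smallest value that 3 libraries against 3 allow, and the same p after adjustment over the 6 pairs of partners compared, which were chosen with the values known.

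Both sorting genes fell. M6PR, the small cation-dependent mannose phosphate receptor, was at 53.77, 51.25 and 55.08 FPKM in siControl and at 27.27, 28.89 and 32.35 FPKM in siOXTR, 1.81-fold lower. Its exons share 1104 bases with PHC1 on the opposite strand. GNPTAB, the subunit pair of the phosphotransferase that makes the tag, held 9.88, 8.96 and 9.48 FPKM in siControl and 6, 5.8 and 5.55 FPKM in siOXTR, 1.63-fold lower. The large mannose phosphate receptor IGF2R, no member of the set, fell further, from 30.3 ± 2.5 to 7.68 ± 0.255 FPKM, or 3.94-fold. The ratio of M6PR to IGF2R went from 1.77 ± 0.187 to 3.85 ± 0.393 with no overlap (exact two-sided permutation p = 0.1). GNPTG, the third subunit of the phosphotransferase, went from 42.4 ± 3.82 to 35.2 ± 0.863 FPKM, so that GNPTAB relative to GNPTG was 0.225 ± 0.0309 and then 0.164 ± 0.00303.

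Of the transcription factor genes only TFE3 could be tested, and the activity of the factors was not measured. TFE3 held 19.7, 20.79 and 18.4 FPKM in siControl and 19.84, 20.89 and 20.56 FPKM in siOXTR, with overlap and no call (log2 fold change 0.056, 95% confidence interval -0.073 to 0.19, adjusted p = 0.428, limma), and its log2 fold change was -0.063 after TMM scaling and -0.026 at equal sums. TFEB was listed at 0.24, 0.5 and 0.57 FPKM in siControl and at 0.5, 0.55 and 0.22 FPKM in siOXTR. These levels are too low to compare. MITF, a related factor and no member of the set, was at 12 ± 0.847 and 11.1 ± 0.351 FPKM and was not called as deposited (log2 fold change -0.11, adjusted p = 0.161, limma). It was called lower after TMM scaling (log2 fold change -0.22, adjusted p = 0.0145), at equal sums (adjusted p = 0.0406) and without siControl replicate 2 (adjusted p = 0.0379).

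**Figure D2:**
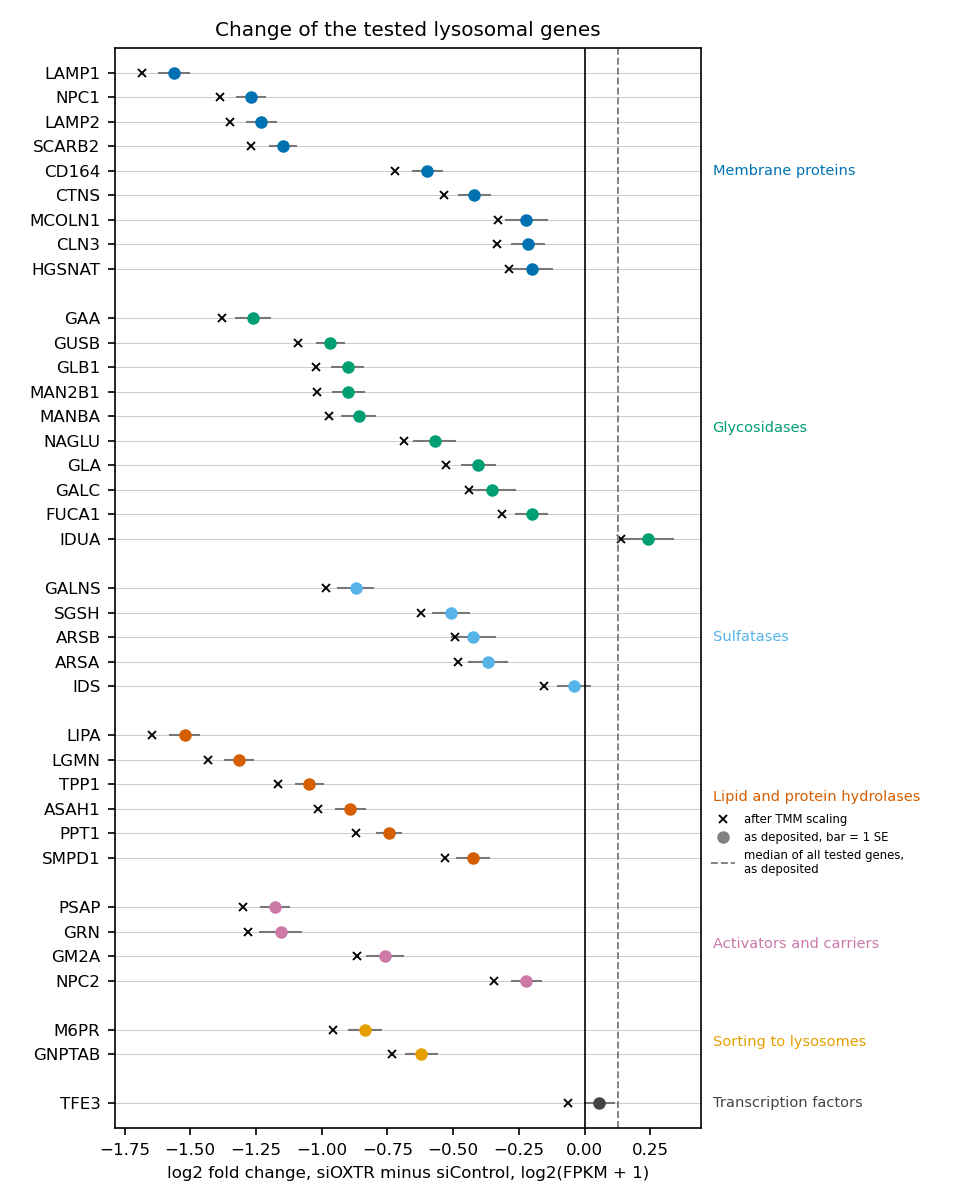
Log2 fold change (siOXTR minus siControl, log2(FPKM + 1)) of the 37 tested genes by role, as deposited (circles, bars of 1 SE, n = 3 libraries a group) and after TMM scaling (crosses), with the median of all tested genes at 0.13 as a dashed line. Values run from -1.56 for LAMP1 to 0.24 for IDUA, and scaling moves all of them to the left.

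The members with low levels fell less on the log2(FPKM + 1) scale. Across the 37 tested members the log2 fold change and the log2 of the mean FPKM over all 6 libraries had a Pearson r of -0.54 and a Spearman rho of -0.54, against 0.038 and 0.10 over all 11550 tested genes. This is a correlation across genes of the same libraries, given as a description, and the log2(FPKM + 1) scale itself draws genes with low values toward 0. With 0.1 in place of 1 the 2 coefficients were both -0.46. Other lumenal and membrane genes of the pathway showed a relation of the same sign. Against the mean siControl level, r was -0.42 and rho -0.44 over 55 such genes, and both were -0.61 over the 37 members. Over 11482 tested genes they were -0.058 and 0.016. The siControl level is also the term subtracted in the change, which by itself draws this relation toward negative values. Among the 16 members with a siControl mean up to 15 FPKM the median change was -0.42 on the log2 scale. It was -0.97 both among the 10 between 15 and 45 FPKM and among the 11 above 45 FPKM. All tested genes in the same ranges of level had medians of 0.12, 0.12 and 0.16. NPC2, at 134 ± 2.38 FPKM in siControl, stood apart from the other abundant members, and its rank by level among the 39 went from 5 in siControl to 2 in siOXTR. Coding length, taken from GENCODE release 29, had little relation to the change among the members (Pearson r -0.062, Spearman rho 0.015), against -0.19 and -0.20 over the 11482 tested genes with a coding length.

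**Figure D3:**
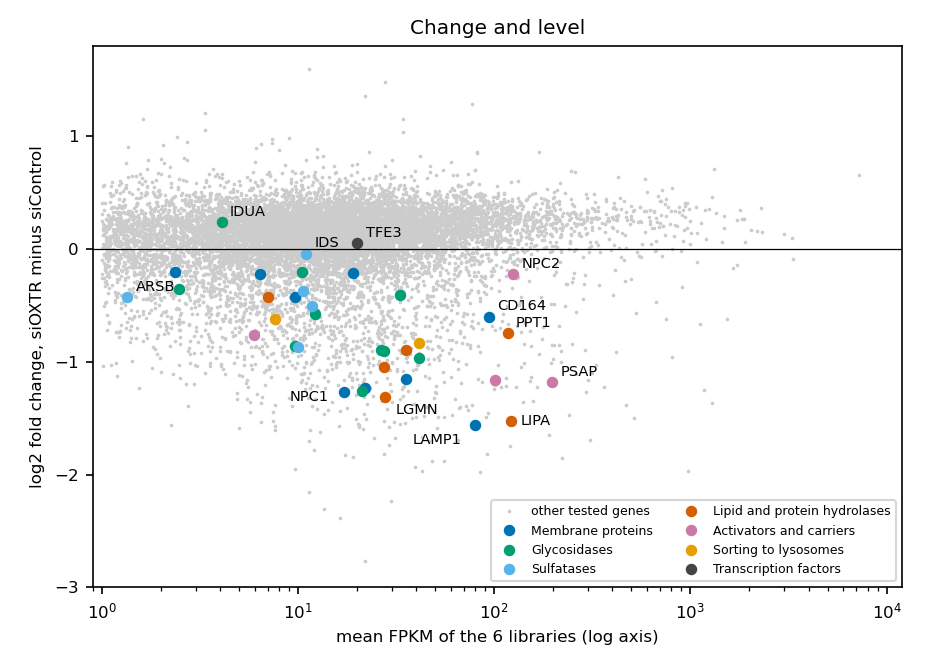
Log2 fold change against the mean FPKM of the 6 libraries (log axis) for all tested genes (grey) and the 37 tested lysosomal genes (coloured by role, some labelled). Most lysosomal genes lie below 0, and above 45 FPKM all but NPC2 lie below -0.5.

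Promoter sequence was examined because many lysosomal genes are known to share the CLEAR element. RefSeq promoters (250 bases before to 50 after the start, GRCh38.p14, first listed start of each gene) were matched for 29 of the 39 members. Not matched were ARSA, ASAH1, HEXA, HGSNAT, LAMP2, LGMN, MANBA, NAGLU, PSAP and SGSH. The searches, on both strands, were for the E-box core CACGTG, for the extended E-box TCACGTGA and the CLEAR element (the extended E-box with g before and c after it), which both contain the core, for the M-box TCATGTGA (reverse TCACATGA), and for 2 motifs of other factor families, the AP-1 site TGACTCA and the cAMP response element TGACGTCA. The core was found in 6 of the 29 members (20.7%), against 10.3% of the 9511 tested genes with a sequence. The extended E-box was found in the same 6, CD164, CLN3, GAA, GALNS, LAMP1 and MCOLN1, against 2.04% of tested genes, and the full CLEAR element in GAA, GALNS and MCOLN1 (10.3%), against 0.852%. The M-box was found in GALC, GRN, PPT1 and TPP1 (13.8%), against 0.82%. The AP-1 site was in 1 member, TFE3, against 2.83% of tested genes, and the cAMP response element in none, against 3.33%. Counting every listed start of a gene added ARSB and M6PR to those with a core, 8 of 29 (27.6%) against 12.7%.

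Some of the matched stretches of 30 bases are shown to let the motif and its surroundings be compared between members. Left out are LAMP1 and a further site in each of CLN3, GALNS, MCOLN1, GRN and TPP1. The further sites of CLN3 and GALNS hold the core alone, and that of MCOLN1 the extended E-box without the full CLEAR element. The core or the M-box is in capitals, with coordinates in GRCh38.p14.
GAA, chr17:80101493-80101522, plus strand: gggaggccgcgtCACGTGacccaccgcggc
GAA, chr17:80101538-80101567, plus strand: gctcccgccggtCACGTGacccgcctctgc
GALNS, chr16:88857104-88857133, minus strand: caggcaccgcgtCACGTGacccgccgctgg
MCOLN1, chr19:7522598-7522627, plus strand: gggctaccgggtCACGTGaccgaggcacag
CLN3, chr16:28492058-28492087, minus strand: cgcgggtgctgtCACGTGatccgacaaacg
CD164, chr6:109382484-109382513, minus strand: acaggggcctctCACGTGacccctgcgcgc
GRN, chr17:44345068-44345097, plus strand: ctgtcccgacgTCACATGAttctccaatca
TPP1, chr11:6619425-6619454, minus strand: gaatatagagcTCATGTGAtccgtcacatg
PPT1, chr1:40097238-40097267, minus strand: cgcgcccgcggTCATGTGAcacagcgaaga
GALC, chr14:87993162-87993191, minus strand: gggcgccggagTCATGTGAcccacacaatg
In the first 4 of these the core is flanked by gt before and ac after, which makes the full CLEAR element.

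Changes of members with and without a motif overlapped in range. The 6 with a core had log2 fold changes from -1.56 (LAMP1) to -0.21 (CLN3) with a median of -0.73, and the 22 other tested members with a sequence had a median of -0.68 and ran from -1.52 to 0.24. The 3 with a CLEAR element had a median of -0.87 and the 25 without it -0.62, and the 4 with an M-box a median of -0.90 and the 24 without it -0.61. These are descriptions of few genes and no difference was tested. LAMP1, with 6 cores, fell most, whereas MCOLN1, with 2 cores and a full CLEAR element, had a log2 fold change of -0.22. Over all tested genes with a sequence the median was 0.13 both with and without the core, and likewise for the extended E-box. It was 0.11 with and 0.13 without the CLEAR element, and 0.11 with and 0.13 without the M-box. A match describes letters in these windows and not binding by a factor.

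**Figure D4:**
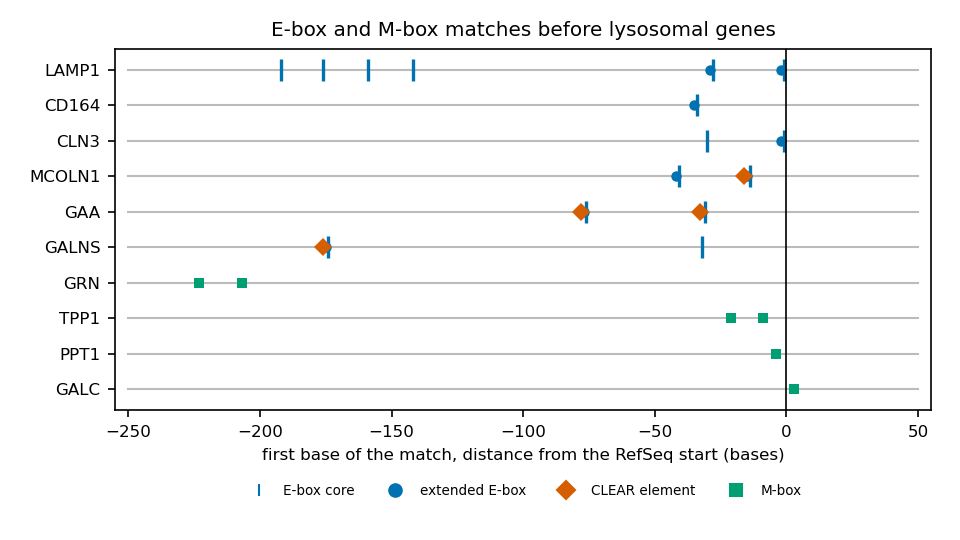
Distance in bases of each match from the RefSeq start (line at 0) in the 10 members with a match to an E-box or M-box. A CLEAR element covers the mark of the extended E-box inside it. LAMP1 holds 6 cores, 4 of them between 192 and 142 bases before the start, and most other matches lie within 80 bases of the start.

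Other genes of the pathway were described in lists. These were assembled by protein location, with earlier results of these data known, and are no members of the set. Falls in these lists are set against the 17.6% of all tested genes called lower as deposited and the 24.2% after TMM scaling. Of 30 tested genes of other lumenal proteins 25 fell and none rose (limma, none at an unadjusted p under 0.05 either), with a median log2 fold change of -0.61. After TMM scaling 25 were lower. MAN2B2 and PLBD2 fell most, from 18.7 ± 0.534 to 6.37 ± 0.459 FPKM and from 11.4 ± 0.625 to 3.76 ± 0.268 FPKM. AGA, at 1.87 ± 0.258 and 0.87 ± 0.115 FPKM, passed the filter through its siControl values. Of 25 genes of other membrane proteins 17 fell and 1 rose (median -0.36). LAMP3 fell 2.75-fold, LMBRD1, of cobalamin export, 2.02-fold, CLCN7, the chloride exchanger, 1.67-fold and LAPTM4A 1.67-fold. The rise was in PIP4P1, a phosphatase that acts on phosphoinositides, from 20.8 ± 1.04 to 27.6 ± 1.01 FPKM, and it is named after its value was seen. Of 8 sorting receptors and maturation enzymes 6 fell and none rose (limma, none at an unadjusted p under 0.05), and 7 were lower after TMM scaling. IGF2R, SORT1 and SUMF1, which activates sulfatases, were 3.94-fold, 2.42-fold and 1.79-fold lower and CLN6 1.32-fold lower.

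In 3 further lists no gene was called lower as deposited. Their proteins work from the cytosol, apart from transcription factors such as MITF. The rises are set against the 42.2% of all tested genes called higher as deposited and the 19.7% after TMM scaling. Of 25 tested genes of complexes on the cytosolic face of the lysosome (BORC, HOPS, Ragulator, the Rag GTPases and folliculin with its partners) 18 rose and none fell (limma, 19 higher and none lower at an unadjusted p under 0.05), with a median log2 fold change of 0.27. After TMM scaling 11 were higher and none lower, with a median of 0.16. VPS16, a core subunit of the HOPS tether, rose from 13.9 ± 1.03 to 20.4 ± 0.885 FPKM, VPS33A from 6.04 ± 0.268 to 8.34 ± 0.212 FPKM, LAMTOR1, the membrane anchor of Ragulator, from 54.9 ± 4.47 to 73.4 ± 2.22 FPKM and RRAGB from 3.06 ± 0.176 to 4.59 ± 0.449 FPKM, and these 4 were also called after TMM scaling. Of 14 genes of cytosolic sorting coats 6 rose and none fell (limma, likewise at an unadjusted p under 0.05), and 3 were higher after TMM scaling, shares near those of all tested genes. Their median of 0.13 equalled that of all tested genes. GGA3, AP1G1 and AP3M1 had log2 fold changes of 0.31, 0.30 and 0.26, and GGA1, at 0.21, lost its call after either scaling, with no filter on low values and without any single library other than siControl replicate 2, where adjusted p-values ran from 0.0569 to 0.354. Among 9 tested genes of MITF, its regulator kinase complex mTORC1 and the TSC complex, 5 rose and none fell as deposited, not far from the share of all tested genes. TMM scaling left 3 called higher and gave 1 called lower, MITF. MLST8 and TBC1D7 had log2 fold changes of 0.51 and 0.53, AKT1S1 of 0.39 and TSC1, whose call was lost after TMM scaling, of 0.24.

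**Figure D5:**
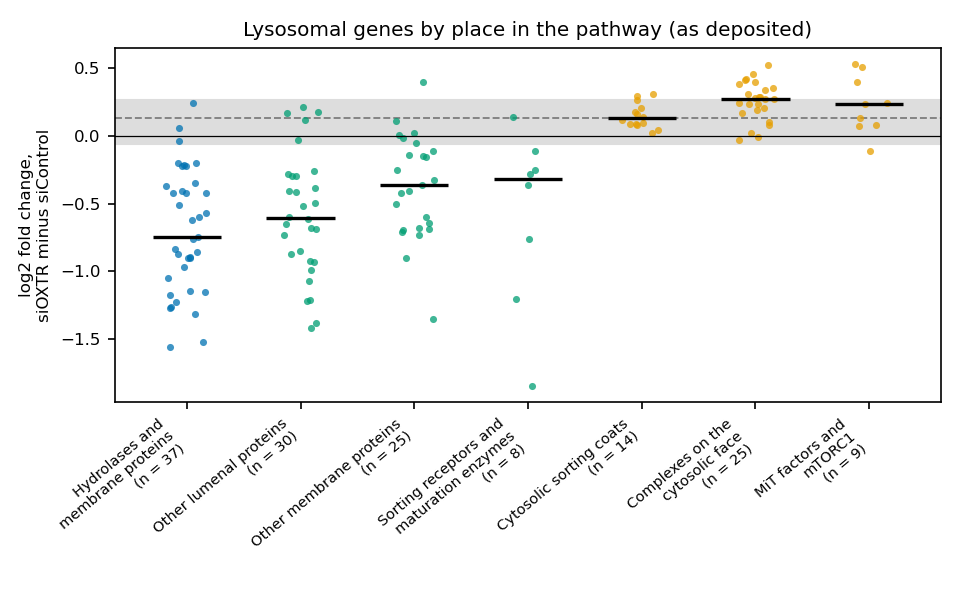
Log2 fold change as deposited of each tested gene (points, spread sideways for visibility) of the lysosomal hydrolases and membrane proteins and of 6 other lists of the pathway, with the median of each list as a black bar. The grey band is the interquartile range of all tested genes and the dashed line their median of 0.13. The lists of lumenal and membrane proteins have medians from -0.74 to -0.32, and those of mainly cytosolic proteins from 0.13 to 0.27. All lists were chosen with earlier results of these data known.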

How the data were processed

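SNU216 RNA from 3 siControl and 3 siOXTR libraries was sequenced following a protocol for the BGISEQ-500, according to the labels. The authors deposited 1 FPKM value for each gene in each library, to 2 decimals, per the file headers. GRCh38.p13 is the build named in the submitters' processing notes. For the aligner, quantifier, annotation and strand handling, the answer is not given in the sources used here. A search of low values for steps of whole fragments reached a coherence of 0.176 to 0.289 of a possible 1, so depth is unknown and no count model was used. Within a group no 2 libraries shared the values of more than 0.606% of tested genes.

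Testing used limma 3.58.1 (R 4.3.3) on log2(FPKM + 1) for genes whose mean reached 1 FPKM, with the group as its single factor and a robust, trended prior variance. Tests were two-sided, p-values were adjusted by Benjamini-Hochberg over all 11550 tested genes, and the threshold was 0.05. The script was tested on simulated data. Folds are ratios of mean FPKM. TMM was computed on FPKM without weights. Ratios within libraries were tested with SciPy 1.17.1. Members and lists were chosen with earlier results of these data known. Named are all members, OXTR and up to 4 called genes of each other list with the largest change, of which some are not reported here. Genes whose exons overlap others by 100 bases or more (11 of 39 members), or with near-identical copies (GUSB, IDS), are uncertain. The members with such overlap are NPC1, CLN3, MCOLN1, HEXA, MAN2B1, NAGLU, IDUA, IDS, PPT1, TPP1 and M6PR. The alternatives were another pseudocount, 2 filters, 2 scalings, a replicate block and leaving out each library.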

Additional observations from a re-analysis of the deposited data

How the results depend on the processing

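Of 62 named genes tested, 1 changed direction. TFE3, which was not called, had a log2 fold change of -0.063 after TMM scaling and -0.026 at equal sums. The members called lower were 34 as deposited, with the pseudocount of 0.1, with either scaling and with the replicate block, 32 with no filter on low values, 31 of the 33 that reached 5 FPKM, and 31 to 34 when leaving out 1 library. The members called higher were 0 as deposited and 1, IDUA, with the replicate block, and between 0 and 1 when leaving out 1 library. All tested genes called higher went from 4869 to 2280 after TMM scaling and to 2954 at equal sums. Complexes on the cytosolic face went from 18 to 11 higher after TMM scaling, and cytosolic coats from 6 to 3 after either scaling. Whether equal replicate numbers mark pairs could not be settled with 3 libraries a group. Deviations of same-numbered libraries correlated at 0.107, 0.00421 and 0.160, and those of differently numbered libraries at -0.310 to 0.208. Not every library correlated best with its own number. With the replicate as a block 7205 genes were called in place of 6905. FPKM carries no depth, which limits what can be said of HEXA, TFEB and other genes under 1 FPKM.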

Other observations

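By level among the 39, PSAP held rank 1 and PPT1 rank 3 in both groups, LIPA stood at rank 2 in siControl and 5 in siOXTR, CD164 at rank 7 and then 4, and TFE3 at rank 21 and then 13.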
